A study of Mus musculus with 12 samples.

Results

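The genes of fatty acid oxidation and ketone body formation were examined in the livers of adult female mice that over-express the microRNA gene Mir483. They were a list of 42 genes named by function, each found once among the 55401 genes of the count table, and 41 of them had enough reads to be tested. Cpt1b, the muscle form of carnitine palmitoyltransferase, was the exception, with at most 1.28 CPM (counts scaled to 1e+06 per library) in any library. By role, the list held 6 genes of fatty acid activation and the carnitine shuttle, 11 of mitochondrial beta-oxidation, 3 of electron transfer, Acad10 and Acad11, 9 of peroxisomal oxidation, 2 of ketone body metabolism, 5 acyl-CoA thioesterases and 4 regulators or fasting-response genes.

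RNA was sequenced from 6 Control and 6 iTgMir483 livers, all female and 15 weeks old, on a C57BL/6J background. iTgMir483 mice carry an extra copy of Mir483 at the Rosa26 locus, driven by a tetracycline-controlled transactivator that doxycycline switches off. Mothers drank water with doxycycline during pregnancy, and it was then withdrawn. The transgene was thus active from birth until the liver was taken. The transgene becomes active once a Neo cassette is deleted by CMV-Cre, which acts in all tissues, so the over-expression was not limited to hepatocytes. Because Cre came from homozygous mothers, control littermates of that cross would carry Cre as well. The colony was fed standard chow freely outside stated fasting periods, and the sources used here do not say whether these mice were fasted before dissection or at what hour it took place.

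In hepatocytes, long-chain fatty acids are activated to acyl-CoA, carried into mitochondria by the carnitine shuttle and shortened by beta-oxidation to acetyl-CoA. During fasting much of that acetyl-CoA is turned into ketone bodies for other organs. Peroxisomes shorten very-long-chain and branched fatty acids, and the nuclear receptor PPAR alpha induces genes of both pathways when fatty acids reach the fasted liver.

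The 2 mature products of Mir483 are shown because direct targets often carry a match to the seed (bases 2 to 8, capitals). Only full matches in the longest 3′ UTR of each gene were searched, so a gene without one may still be a target. The sequences are from RefSeq, and in GRCm38.p6 they lie at chr7:142654932-142654952 and chr7:142654968-142654989, both on the minus strand, within the Igf2 gene.
mmu-miR-483-3p: uCACUCCUccccucccgucuu
mmu-miR-483-5p: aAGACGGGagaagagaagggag
A match to all 7 seed bases of miR-483-3p was found in the 3′ UTR of 2 of 41 members, Decr1 and Hsd17b4. That is 4.88% of members, beside 12.6% of the 12098 genes whose 3′ UTR was read from GENCODE M21. The miR-483-5p seed was matched in 1 member, Echs1, which is 2.44% beside 3.26%. The 3′ UTRs of members had a median length of 747 bases, shorter than the 1164 bases over all genes. The sites of Decr1 (chr4:15918175-15918181, minus strand) and Echs1 (chr7:140106120-140106126, minus strand) are shown with the match in capitals.
Decr1: agaagaagcttAGGAGTGgaggtaacctg
Echs1: gtcaggctcacCCCGTCTtctgaatcaga
None of the 3 genes with a site changed between the groups. Their log2 fold changes (iTgMir483 over Control) were -0.15 for Decr1, -0.37 for Hsd17b4 and 0.040 for Echs1.

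Libraries held 12244123 to 30431286 counts. Mir483 itself was at 0 counts in every control and at 318 to 761 counts in the iTgMir483 libraries, which matches the labels, although a library of polyadenylated RNA measures the transgene's transcript and not the mature microRNA. A gene was called changed when its adjusted p was under 0.05 in edgeR's quasi-likelihood test and its fold change exceeded 1.5. Over all genes tested, 8.41% were changed and higher and 2.73% were changed and lower. Hepatocyte markers were detected in all libraries. Their mean log2 level, relative to the control mean, was -0.16 to 0.15 in controls and -0.72 to -0.48 in iTgMir483, and 4 of 12 were changed, all lower. The summed level of 14 macrophage and leukocyte markers was 319 to 469 CPM in controls and 495 to 1356 CPM in iTgMir483, with 9 of the 12 tested changed, all higher. Of the bile duct markers 3 of 6 were changed, all higher. By edgeR none of the 9 stellate or 8 endothelial markers was changed. An unadjusted p under 0.05 was found for 2 of each. On the adjusted p alone 1 endothelial marker was higher, beside 11.3% of all genes. Adipocyte markers reached at most 21 counts, with Lep at 0 in every library, and the muscle genes Myh7 and Myl2 were at 0 throughout. Fewer hepatocytes and less RNA per hepatocyte cannot be told apart in bulk tissue, and the part of cell composition in the values below was not tested.

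Before any comparison of groups, 3 libraries stood apart in these genes. Control replicate 1 had the lowest level of the 6 controls for 35 of 41 members, whereas it was the lowest control for 23.8% of all genes tested. iTgMir483 replicate 1 was the lowest of its group for 19 members and iTgMir483 replicate 4 for 13, beside 20.2% and 22.1% of all genes. Together these 3 libraries held the lowest of all 12 values for 36 of 41 members. Summed over the members, they had 14546, 14902 and 15950 CPM, and the other 9 libraries had 20140 to 25566 CPM.

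The same libraries were also high in a list of genes that feeding induces, such as those of lipid synthesis. That list summed to 5000 CPM in Control replicate 1 and to 842 to 2558 CPM in the other controls. It summed to 11691 CPM in iTgMir483 replicate 1 and 10018 CPM in replicate 4, above the 3388 to 4351 CPM of the other iTgMir483 livers. Genes that fasting induces did not mirror this order, since their sum was lowest in iTgMir483 replicate 1 (3363 CPM) and highest in iTgMir483 replicate 4 (14774 CPM). The part of feeding state in the member values was not tested.

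**Figure D1:**
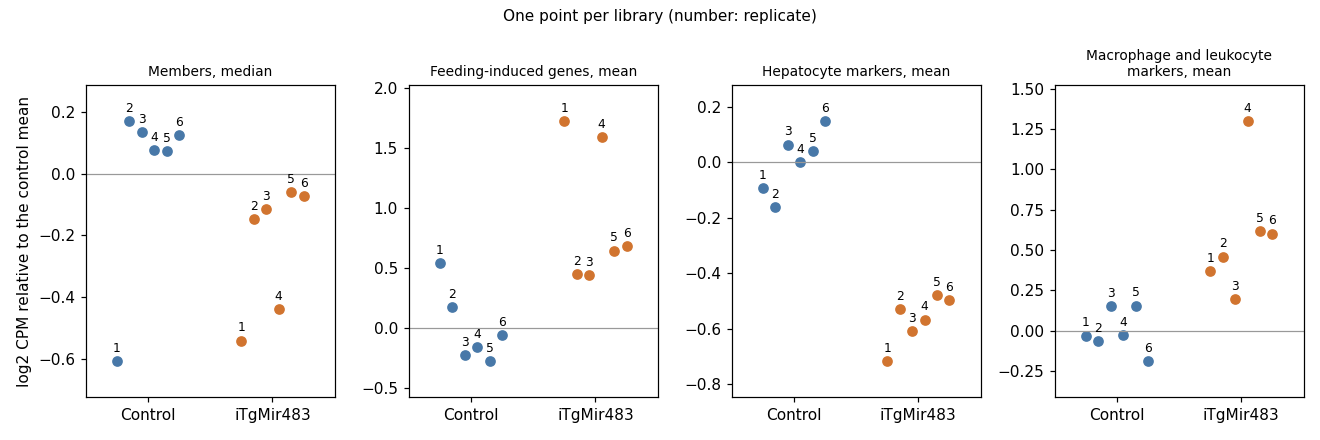
Levels in each library on the log2 CPM scale relative to the control mean, 1 point per library with its replicate number, for the median over the 41 members and the mean over 3 gene lists. Control replicate 1 and iTgMir483 replicates 1 and 4 have the lowest member medians (-0.61, -0.54 and -0.44), and the 2 iTgMir483 libraries of these 3 have the highest feeding-induced level (1.72 and 1.59).

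Across the 41 members, 1 gene was changed, Scp2, which was higher in iTgMir483. The background is 11.1% of the 13205 genes tested, with 8.41% changed and higher and 2.73% changed and lower. On the adjusted p alone, 1 member was higher (11.3% of all genes) and 1 was lower, Acot12 (7.33% of all genes). At an unadjusted p under 0.05, 7 members were lower and 2 higher, beside 14.8% and 18.6% of all genes.

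The estimates themselves were mostly below 0. The log2 fold change was negative for 30 members and positive for 11, with a median of -0.24, while 49.2% of all genes were negative and their median was 0.0058. Most of these estimates were imprecise: the 95% interval lay inside a fold change of 1.5 in either direction for 13 of 41 members, compared with 51.6% of all genes. In the map of levels by library, the low values of Control replicate 1 lie inside the reference group.

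**Figure D2:**
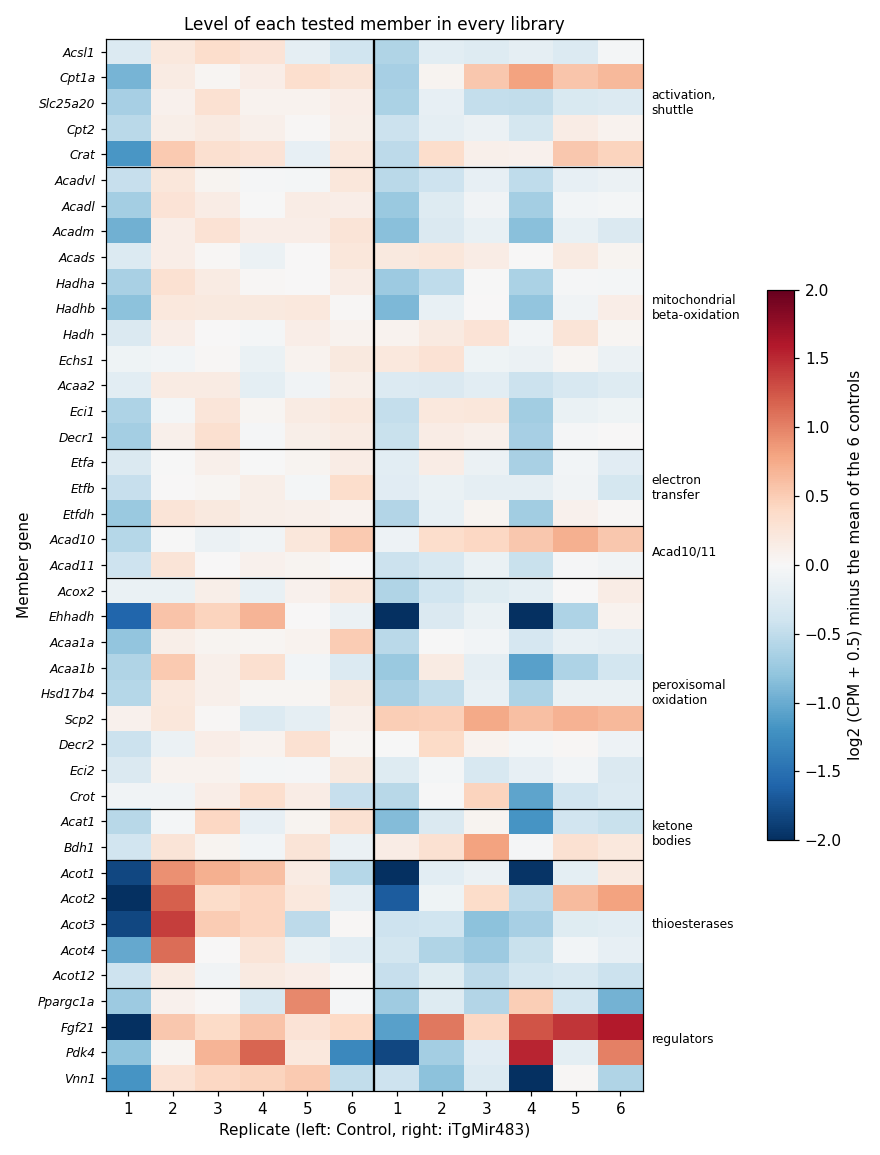
Level of each tested member (rows, by role) in each library (columns; Control left, iTgMir483 right) as log2 (CPM + 0.5) minus the mean of the 6 controls, with colours ending at -2 and 2. Control replicate 1 and iTgMir483 replicates 1 and 4 are mostly blue columns. Scp2 is red across all iTgMir483 libraries, and Acads is slightly above the control mean in all of them (0.012 to 0.23).

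**Figure D3:**
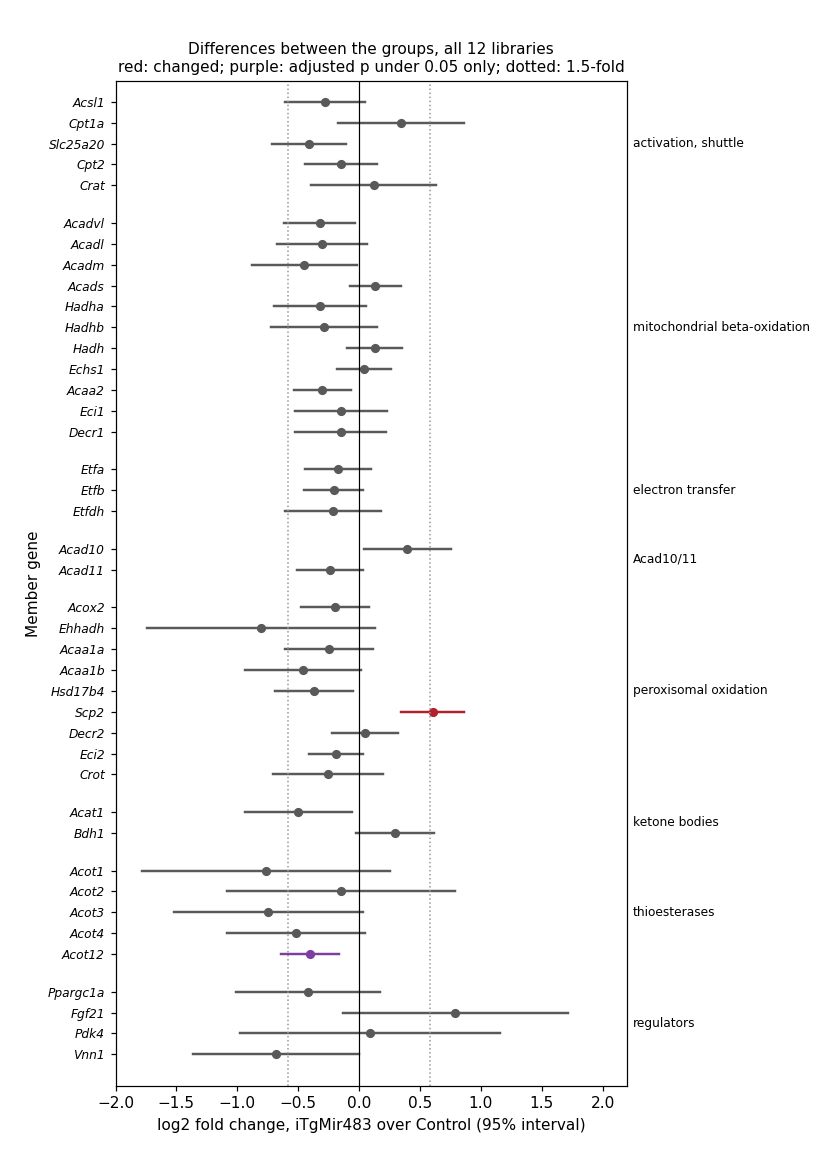
log2 fold change of each tested member (iTgMir483 over Control) with its 95% interval from edgeR, by role. Scp2 is changed (red), Acot12 passes the adjusted p only (purple), and most of the other intervals include 0.

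Scp2 (ENSMUSG00000028603, chr4:108043839-108144998, minus strand) encodes both a peroxisomal thiolase that shortens branched fatty acids and bile acid precursors and, from an internal promoter, a sterol carrier protein. Gene-level counts do not separate these products. Controls had a lowest, median and highest level of 1375, 1718 and 1938 CPM, and iTgMir483 livers had 2303, 2542 and 2799 CPM. Every iTgMir483 liver was therefore above every control. The groups of every other tested member overlapped, while 7.92% of all genes had groups without overlap, counted in either direction. The mean was 1666 ± 210 CPM in controls and 2532 ± 192 CPM in iTgMir483 (SD, n = 6 each). This was a log2 fold change of 0.60 (SE 0.12) with an adjusted p of 0.00428 in edgeR. The two-sided exact permutation p on log2 CPM was 0.00216, the smallest that 6 against 6 libraries allow. The fold change was 1.52, close to the threshold of 1.5. Leaving out Control replicate 4 (log2 fold change 0.55), Control replicate 5 (0.57) or iTgMir483 replicate 3 (0.57) brought it under that threshold, with adjusted p from 0.0108 to 0.0134.

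The other peroxisomal members did not share this direction. Of the 9 tested, 7 had a negative estimate, with a median of -0.25. Acaa1b, a peroxisomal thiolase, had the highest level per kilobase of exon of all members in controls (1009 CPM per kb) and in iTgMir483 (734 CPM per kb). Its level ranged from 1256 to 2744 CPM (median 1950) in controls and from 906 to 2142 CPM (median 1372) in iTgMir483, with a log2 fold change of -0.46 (SE 0.22) and an adjusted p of 0.165. Acaa1a is a close paralog and lies nearby on chromosome 9, so reads may be split between them. Their summed counts gave -0.43, with an adjusted p of 0.166.

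Ehhadh, a bifunctional peroxisomal enzyme of the middle steps of each cycle, was the most variable of these 9 genes. Its lowest, median and highest levels were 719, 2547 and 3435 CPM in controls and 393, 1589 and 2268 CPM in iTgMir483. The lowest control was replicate 1, and the low iTgMir483 values were 393 CPM in replicate 1 and 451 CPM in replicate 4, so the groups overlapped widely. The log2 fold change of -0.81 (SE 0.44) had an adjusted p of 0.216. Hsd17b4, the other bifunctional enzyme, was at 788 ± 137 CPM in controls and 610 ± 102 CPM in iTgMir483 (SD, n = 6), a log2 fold change of -0.37 (adjusted p = 0.102). Acox2, the oxidase of branched chains and bile acid intermediates, Eci2, an isomerase known in both organelles, and Crot, which makes carnitine esters for export, had estimates of -0.20, -0.19 and -0.25. Decr2, a peroxisomal reductase for unsaturated chains, had an estimate of 0.048 with a 95% interval of -0.22 to 0.32.

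Acyl-CoA thioesterases, which split acyl-CoA into free acid and coenzyme A, had the lowest median of the 8 role groups (-0.52), and all 5 estimates were negative. Acot12 (ENSMUSG00000021620, chr13:91741512-91786148, plus strand), a cytosolic enzyme that acts on acetyl-CoA, was the member with the smallest p among those with negative estimates. Controls had a lowest, median and highest level of 181, 255 and 276 CPM, and iTgMir483 livers had 168, 184 and 205 CPM. The groups overlapped through Control replicate 1, at 181 CPM, since the other controls had at least 231 CPM. The means were 245 ± 35.6 and 185 ± 13.2 CPM (SD, n = 6), a log2 fold change of -0.40 (SE 0.11) with an adjusted p of 0.0208 and an exact permutation p of 0.00866. The difference was under the fold threshold.

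Acot1, Acot2, Acot3 and Acot4 are paralogs in a cluster on chromosome 12, of cytosolic, mitochondrial and, for the last pair, peroxisomal enzymes, and all are known to respond to PPAR alpha. These were among the most variable members in controls, with coefficients of variation of 52.1%, 56.1%, 65.1% and 51.4%, against 8.48% for the least variable member, Echs1. Acot3 ranged from 34.3 CPM in Control replicate 1 to 321 CPM in Control replicate 2 (median 145), and from 69.2 to 106 CPM (median 92.4) in iTgMir483. Its iTgMir483 values were thus all inside the control range, and the log2 fold change of -0.74 (SE 0.36) had an adjusted p of 0.166. The estimates of Acot1, Acot2 and Acot4 were -0.76, -0.15 and -0.52, with adjusted p of 0.284, 0.847 and 0.186. Because near-identical copies can exchange reads, the family was also summed, which gave -0.61 (adjusted p = 0.184).

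The plot of CPM per library shows Scp2 apart from the other members, with replicate 1 of each group drawn open.

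**Figure D4:**
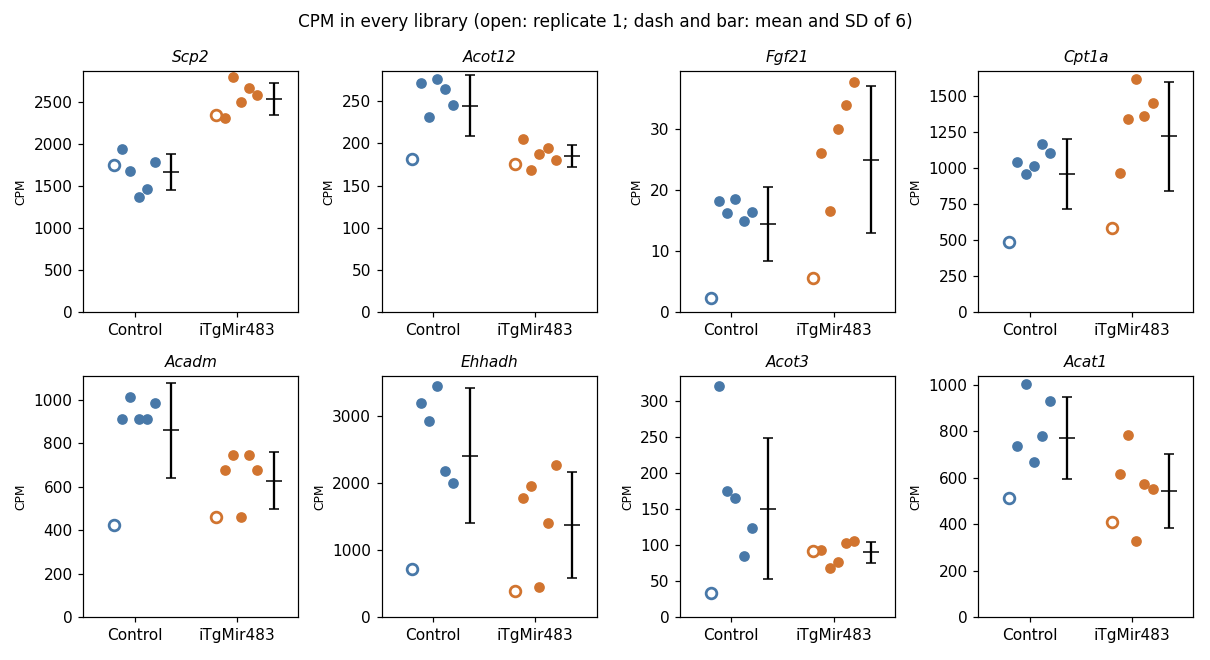
CPM in every library for 8 members, with separate vertical axes that start at 0; open points are replicate 1, and the dash and bar are the mean and SD of 6 libraries. Only the groups of Scp2 do not overlap, and replicate 1 is the lowest control for the other 7.

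For mitochondrial import, beta-oxidation and electron transfer together, none of the 19 genes tested was changed (of 20 listed). The edgeR test gave 4 of them a p under 0.05 before adjustment, all lower, and the median was -0.21. DESeq2 and limma-voom also called none of them changed, beside 12.3% and 10.7% of all genes. On the adjusted p alone limma-voom passed none, and DESeq2 passed 3 with lower levels, Acaa2 (adjusted p = 0.00469), Slc25a20 (0.0245) and Acadvl (0.0474). Over all members DESeq2 passed 5 as lower, beside 10.4% of all genes, the other two being Hsd17b4 (0.0481) and Acot12 (0.0019). For 9 of the 19 the 95% interval lay inside a fold change of 1.5.

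In the shuttle, Acsl1, which activates long-chain fatty acids, was at 1444 ± 311 CPM in controls and 1191 ± 147 CPM in iTgMir483 (SD, n = 6; log2 fold change -0.28, adjusted p = 0.223). Cpt1a, the liver enzyme that commits fatty acids to mitochondrial import, had a positive estimate. Its lowest, median and highest levels were 484, 1026 and 1167 CPM in controls and 586, 1352 and 1619 CPM in iTgMir483. In both groups the lowest library was replicate 1. The estimate was 0.35 on the log2 scale (SE 0.24), and its adjusted p was 0.343. Slc25a20, the carnitine-acylcarnitine carrier of the inner membrane, had 144, 240 and 281 CPM in controls and 147, 174 and 203 CPM in iTgMir483. Apart from Control replicate 1, every control lay above every iTgMir483 liver. The estimate was -0.41 (SE 0.14), and its adjusted p was 0.0582. Cpt2, which completes import, and Crat, the carnitine acetyltransferase, had estimates of -0.15 and 0.12.

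Within beta-oxidation, Acaa2, the last-step thiolase, had the highest level per kilobase of the mitochondrial members (776 CPM per kb in controls). It was at 1013, 1194 and 1316 CPM in controls and 870, 961 and 1015 CPM in iTgMir483. The groups met only at their edges, and the log2 fold change of -0.30 (SE 0.11) had an adjusted p of 0.0678. Acadm, the medium-chain dehydrogenase, had 426, 913 and 1014 CPM in controls and 463, 678 and 747 CPM in iTgMir483. Control replicate 1 lay below every iTgMir483 liver, and the other 5 controls, at 910 to 1014 CPM, lay above every iTgMir483 liver. The estimate for Acadm was -0.45 (SE 0.20), with an adjusted p of 0.133.

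Acadvl and Acadl, the very-long-chain and long-chain dehydrogenases, and Hadha and Hadhb, the subunits of the trifunctional protein, had estimates of -0.32, -0.31, -0.32 and -0.29, with adjusted p from 0.110 to 0.351. Acads and Hadh, which act on short chains, and Echs1, the short-chain hydratase, had estimates of 0.13, 0.13 and 0.040. For each of these 3 the 95% interval lay inside a fold change of 1.5; that of Echs1 was -0.18 to 0.26. Eci1 and Decr1, which handle double bonds, both had estimates of -0.15. Of the exon bases of Acadvl, 42.9% overlap Dvl2 on the opposite strand, and the strand setting of the deposited counts is not given in the sources used here.

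Etfa, Etfb and Etfdh pass electrons from the acyl-CoA dehydrogenases to the respiratory chain. Their estimates were -0.17, -0.21 and -0.21, with adjusted p from 0.214 to 0.445. Etfa was the highest of them per kilobase (190 CPM per kb in controls). The level of Etfb, 33.6 ± 5.91 CPM in controls and 29.0 ± 1.87 CPM in iTgMir483 (SD, n = 6), may be understated, since 53.0% of its exon bases are also annotated to Gm45233 on the same strand, which had 0 counts in every library. The same holds for Cpt1b, which shares 81.4% of its exon bases with Gm44502, also at 0 counts. Acad10 and Acad11, dehydrogenase-like genes grouped apart here, had estimates of 0.40 (adjusted p = 0.111) and -0.24 (adjusted p = 0.201).

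Of the ketone body genes, Acat1, the mitochondrial acetoacetyl-CoA thiolase, was at 511, 757 and 1004 CPM in controls and 330, 563 and 783 CPM in iTgMir483 (lowest, median and highest). The groups overlapped, with the lowest iTgMir483 value in replicate 4 and the highest in replicate 3. The estimate was -0.50 (SE 0.21), with an adjusted p of 0.104. Bdh1, which makes 3-hydroxybutyrate from acetoacetate, had an estimate in the other direction, at 345 ± 57.4 CPM in controls and 424 ± 89.2 CPM in iTgMir483 (SD, n = 6; log2 fold change 0.30, adjusted p = 0.179). The highest Bdh1 value, 594 CPM in iTgMir483 replicate 3, stood apart from the 334 to 422 CPM of the others in its group.

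Among the regulators and fasting-response genes none was changed in the edgeR test on group alone. Fgf21, a hormone that the liver secretes in fasting and under metabolic stress, had 2.32, 16.4 and 18.6 CPM in controls and 5.53, 28.2 and 37.8 CPM in iTgMir483. In both groups the lowest value was replicate 1, and the other 5 libraries had 15.0 to 18.6 CPM in controls and 16.6 to 37.8 CPM in iTgMir483. Its log2 fold change of 0.79 (SE 0.43) had an adjusted p of 0.219. Vnn1, a pantetheinase and PPAR alpha target, had 69.1, 200 and 226 CPM in controls and 37.6, 111 and 159 CPM in iTgMir483 (log2 fold change -0.68, SE 0.32, adjusted p = 0.150). Pdk4, the kinase that spares glucose by inhibiting pyruvate dehydrogenase, had the largest relative spread of all members, from 10.6 to 112 CPM within iTgMir483 (coefficient of variation 79.3%). Its estimate of 0.090 had a 95% interval of -0.98 to 1.16. Ppargc1a, a coactivator of oxidative genes, was at 28.7 ± 12.5 CPM in controls and 21.4 ± 8.72 CPM in iTgMir483 (SD, n = 6; adjusted p = 0.309).

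The comparison was repeated without both replicate 1 libraries, leaving 5 livers per group. These libraries had been singled out by their low values in these same members, and iTgMir483 replicate 4, also low, was kept. Then 3 members were changed. Scp2 was higher (log2 fold change 0.64, adjusted p = 0.00456), as was Fgf21 (0.77, adjusted p = 0.00935), and Acot3 was lower (-0.96, adjusted p = 0.0273). The background was 12.8% of 13226 genes, with 9.44% changed and higher and 3.39% changed and lower. On the adjusted p alone, 7 members were lower beside 8.2% of all genes. They were Slc25a20 (-0.47), Acadvl (-0.36), Acadm (-0.52), Acaa2 (-0.35), Hsd17b4 (-0.41), Acot3 and Acot12 (-0.46). Another 3 were higher, Scp2, Fgf21 and Acad10 (0.39), beside 12.4% of all genes. The fold changes themselves moved little, with 32 members negative, beside 48.8% of all genes, and a median of -0.27, as the plot of both fits shows.

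Without Control replicate 1 alone, 6 members were changed, beside 12.1% of all genes (3.2% changed and lower). Scp2 was higher, and Acadm (-0.59), Acat1 (-0.60), Acot3 (-0.95), Acot4 (-0.67) and Vnn1 (-0.85) were lower, with adjusted p from 0.0140 to 0.0487. On the adjusted p alone 11 members were lower beside 7.88% of all genes, the others being Slc25a20, Acadvl, Acaa2, Etfb, Hsd17b4 and Acot12. Acat1 was also called lower with that library kept and iTgMir483 replicate 3 left out (-0.63, adjusted p = 0.0499). No label gives a reason to leave out either library. Control replicate 1 stood out through these same members, as the lowest control for 35 of 41. Leaving it out raises their control means, so the added lower calls are not separate evidence.

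**Figure D5:**
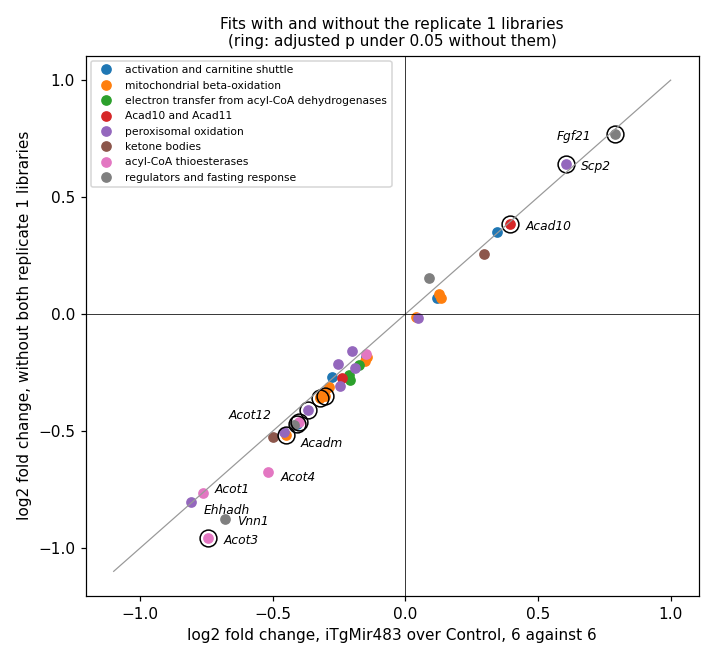
log2 fold change of each tested member with all libraries (horizontal) and without both replicate 1 libraries (vertical), coloured by role; the grey line marks equal values and rings mark an adjusted p under 0.05 without those libraries. Most points lie near the line, including Scp2 (0.60 and 0.64) and Fgf21 (0.79 and 0.77), and Acot3 moves from -0.74 to -0.96.

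Other genes of the pathway were counted by lists. For every list below, the shares over all genes tested were 8.41% changed and higher and 2.73% changed and lower. Outside the members, 19 genes of fatty acid activation or mitochondrial fatty acid oxidation were tested. Of these 1 was higher, Acsl3 (log2 fold change 0.66, adjusted p = 0.0307), a gene of fatty acid activation and not of mitochondrial oxidation itself. Another 1 was lower, Hsd17b10 (-1.11, adjusted p = 0.00839), an enzyme of branched-chain amino acid and fatty acid breakdown. Of 20 other peroxisomal genes 3 were lower, among them Phyh, which starts alpha-oxidation of phytanic acid (-0.76, adjusted p = 0.00128). None of 14 peroxisome biogenesis genes was changed by edgeR, though 4 had an unadjusted p under 0.05. On the adjusted p alone 2 of the 14 were lower, beside 7.33% of all genes. The median of the 14 was -0.093, and 12 of 14 had an interval inside a fold change of 1.5.

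Of 8 other ketone body genes, 1 was changed, Aacs, the cytosolic enzyme that activates acetoacetate for lipid synthesis (1.40, adjusted p = 0.0322). Among 24 further PPAR alpha targets 3 were lower and none was higher, with a median of -0.35. The lower genes were Cyp4a14, a fatty acid omega-hydroxylase (-2.54, adjusted p = 0.00926), Cyp8b1, of bile acid synthesis (-1.29, adjusted p = 0.0190), and Txnip (-0.96, adjusted p = 0.0424). The summed level of that list was 11518 CPM in Control replicate 1 and 30008 to 33780 CPM in the other controls, so it was low in the same control as the members, and in iTgMir483 it was 9297 to 18764 CPM. Of 9 feeding-induced genes 3 were higher, led by the lipogenic genes Fasn (1.75, adjusted p = 0.00649), Thrsp (2.71, adjusted p = 0.00773) and Elovl6 (1.15, adjusted p = 0.00826). Of 9 fasting-induced genes 1 was lower (Txnip), and of 18 further regulators of fatty acid oxidation 2 were higher and 1 was lower, the deacetylase gene Sirt1 (-0.69, adjusted p = 0.00195). None of 15 circadian clock genes was changed in edgeR, and 2 had an unadjusted p under 0.05. On the adjusted p alone 1 clock gene was lower, beside 7.33% of all genes.

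Promoters of the members were searched for a direct repeat, 2 copies of AGGTCA with 1 free base (N) between them, the form of site that PPAR alpha binds with its partner RXR, because all members belong to pathways that this receptor can induce. RefSeq promoters of GRCm38.p6, covering 250 bases before to 50 after the start, were present for 35 members, and up to 2 mismatches in the 12 defined bases were allowed on either strand. A match was found in 6 of 35 members (17.1%) and in 4.4% of 27025 genes. With at most 1 mismatch, the share was 2.86% of members, which was Acot12 alone, and 0.644% of all genes. The matches of Acot12 (chr13:91741411-91741423), Slc25a20 (chr9:108662142-108662154) and Acot4 (chr12:84038366-84038378) are shown in capitals, in the direction of the gene.
Acot12: taggacccTGACCTCTCACCTcctaagca
Slc25a20: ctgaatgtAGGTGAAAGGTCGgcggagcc
Acot4: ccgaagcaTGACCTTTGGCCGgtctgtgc
Acot12 and Acot4 hold the repeat on the opposite strand to the gene, starting at positions -110 and -13 relative to the start of transcription. The other 3 matches were in Acox2, Echs1 and Etfa, with estimates of -0.20, 0.040 and -0.17. A match in letters is a description and does not show that the receptor binds there. Scp2 was not among the genes with a match. Windows were 300 bases long and 7 members had no promoter entry, so a missing match does not show that a site is absent.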

How the data were processed

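Total RNA from 12 mouse livers was made into TruSeq mRNA libraries, and the authors aligned reads with STAR to GRCm38. The authors deposited raw counts per Ensembl gene, with no normalisation, and these counts were used as deposited. Groups and replicate numbers came from the sample titles. The 42 members and all gene lists were chosen with earlier results of these data known, so no test was made over a list. All members could be named, and of other genes at most 3 changed genes of a list were named. Some genes in these lists are not reported here by name.

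Low genes were removed with filterByExpr, leaving 13205 genes, and libraries were scaled by TMM. The 6 iTgMir483 and 6 Control livers were compared with edgeR 4.0.16 (glmQLFit, glmQLFTest) in R 4.3.3, with Benjamini-Hochberg adjustment over all 13205 genes. Fold changes are iTgMir483 over Control, ± is the SD, and CPM uses TMM-scaled library sizes. Exact permutation tests were two-sided, on log2 CPM, over 924 splits. Alternatives used DESeq2 1.42.0, limma 3.58.1 (voom), other filters and scalings, a fold test, a replicate block, summed paralogs and left-out libraries. The test was first tested on simulated data. Libraries of a group differed by far more than sampling noise (smallest chi-square per gene 15.7). Each library is labelled as a separate replicate liver, and p-values measure the spread between these libraries. Seed matches used 3′ UTRs of GENCODE M21.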

Additional observations from a re-analysis of the deposited data

Results flagged for a closer look

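A library whose distance from its nearest neighbour was large for a group of 6 (Dixon's ratio above 0.625) occurred in 13 of 82 groups of member values, where chance at 1 in 20 gives 4.1. The groups share libraries, so these are not 13 separate events. Control replicate 1 was the low value in 9 of the 13. Its ratio was 0.691 for Cpt1a (484 CPM, others 956 to 1167), 0.687 for Slc25a20 (144 CPM, others 238 to 281) and 0.733 for Cpt2 (182 CPM, others 267 to 298). It was 0.823 for Acadm (426 CPM, others 910 to 1014), 0.632 for Hadha (426 CPM, others 679 to 826) and 0.771 for Hadhb (89.3 CPM, others 162 to 184). For Etfdh it was 0.762 (392 CPM, others 691 to 784), for Hsd17b4 0.723 (523 CPM, others 793 to 897) and for Fgf21 0.779 (2.32 CPM, others 15.0 to 18.6).

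The other 4 were high values in single libraries. Decr2 was at 421 CPM in iTgMir483 replicate 2 (ratio 0.692, others 302 to 339), and Bdh1 was at 594 CPM in iTgMir483 replicate 3 (ratio 0.659, others 334 to 422). Ppargc1a was at 52.5 CPM in Control replicate 5 (ratio 0.658, others 16.0 to 28.5) and at 38.1 CPM in iTgMir483 replicate 4 (ratio 0.651, others 13.8 to 22.3).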

How the results depend on the processing

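The single call on Scp2 was also made with RLE size factors, DESeq2, limma-voom, no filter, a minimum of 10 counts in every library and summed paralogs, and its log2 fold change was 0.59 to 0.64 over these, the replicate block and the fit without both replicate 1 libraries. Without the fold threshold 2 members were changed, 1 of them lower (Acot12), beside 18.6% of all genes. When the null was a fold change of 1.5 instead, 0 members were changed and 0 higher, and 226 of all genes were called. Leaving out each library in turn gave 0 to 6 members changed, 0 to 1 higher and 0 to 5 lower. In these fits 8.93% to 12.4% of all genes were changed, and 2.09% to 3.2% were changed and lower. The median log2 fold change of members was -0.33 to -0.19, and no member was changed without Control replicate 4 or 5. Without both replicate 1 libraries 3 members were changed, 2 higher and 1 lower, beside 12.8% of all genes. Of 902 member values under the alternatives, 874 kept their direction and side of the threshold and 14 reversed sign, in 5 members that were called in no fit. Leaving out 1 library gave -0.042 to 0.23 for Crat, -0.013 to 0.078 for Echs1, -0.029 to 0.11 for Decr2, -0.36 to 0.14 for Acot2 and -0.35 to 0.38 for Pdk4. Without both replicate 1 libraries Echs1 was at -0.013 and Decr2 at -0.015, and Pdk4 was at -0.076 with limma-voom. The cause was not tested. Replicate numbers did not pair the samples throughout: the correlations of deviations were 0.44 for number 1 and 0.03 to 0.17 for the others. The best iTgMir483 match of Control replicates 1 and 5 had the same number, and that of the other controls did not. A shared origin of both replicate 1 livers was not tested. With the replicate block 2 members were changed, beside 11.6% of all genes. These were Scp2 and Fgf21 (0.79, adjusted p = 0.00851 in edgeR), both higher, and Pdk4 was at -0.13. Every tested member had at least 104 counts in every library apart from Fgf21, whose lowest count was 37.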
